A study of Mus musculus with 168 samples.

Results

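Mir700 is a mouse microRNA gene whose hairpin lies across an intron and exon junction of Rcan3. It was selected as the row of the hippocampal count table whose Ensembl transcript, ENSMUST00000102169 (gene ENSMUSG00000076123), is named Mir700 in GENCODE M21. It was 1 of 1626 transcripts in the table and 1 of the 470 that carried enough counts to be tested. Mir700 was picked because its level followed Huntingtin CAG length at 6 months and in the 6- and 10-month data combined. Its differences between genotypes at those ages are therefore given as values with standard errors and without a test. Tests are given for the 2-month genotypes and for sex, which did not enter that choice.

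The libraries hold short hippocampal RNA of male and female mice from a knock-in allelic series (strain C57BL/6 in the labels, bred to C57BL/6J females in the study's methods), taken at 2, 6 and 10 months of age. Animals of the Q20, Q80, Q92, Q111, Q140 and Q175 lines were heterozygous, carrying 1 wild-type Htt allele and 1 allele in which human HTT exon 1 with a CAG tract of about the named length had replaced the mouse sequence. Wild-type (WT) animals were littermates of the Q20 line and were assigned 7 repeats in all fits, and the Q175 line arose from the Q140 line. Genotype and age gave 21 groups of 8 libraries. The sexes were balanced at 4 and 4, apart from Q80 at 2 months (3 females, 5 males) and Q20 at 10 months (5 females, 3 males). The sources differ on housing: the sample labels give cage mates of the same genotype for each line, with Q20 and WT mice together, whereas the study's methods describe mixed cages of heterozygous and WT animals. According to the study's methods, a library stands for a separate animal.

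A microRNA gene is transcribed as part of a longer RNA, from which Drosha cuts a hairpin and Dicer then cuts the short duplex. Either strand of that duplex, the 5p or the 3p arm, can be loaded into an Argonaute protein, where bases 2 to 8 (the seed) lead the pairing with target messengers. Rcan3 belongs to the regulators of calcineurin, a family of proteins that bind the calcium-activated phosphatase calcineurin, which in neurons acts on NFAT transcription factors and on synaptic proteins.

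The Mir700 hairpin occupied chr4:135416555-135416633 on the minus strand of GRCm38, a length of 79 bases. Rcan3 is on the same strand at chr4:135412308-135433853. In transcript Rcan3-201 the first 35 bases of the hairpin were the end of intron 4 and the other 44 were the start of exon 5, the last exon, and all 44 were coding sequence and not UTR. The acceptor splice site of that exon thus lay inside the hairpin. In Rcan3-202, which joins exon 3 to a more distant last exon, the whole hairpin was intronic, and Rcan3-203 ended before reaching it. Both mature arms are shown because they fall on opposite sides of the splice site, with the seed in capitals and the sequences taken from RefSeq (GRCm38.p6).
miR-700-5p: uAAGGCUCcuuccugugcuugc
miR-700-3p: cACGCGGGaaccgaguccacc
The 22-base 5p arm lay at chr4:135416601-135416622, entirely in the intron, and ended 2 bases before the exon, those 2 bases being the AG of the acceptor site. The 21-base 3p arm lay at chr4:135416561-135416581, entirely in the coding exon. The hairpin as annotated in GENCODE is shown with its exonic part in capitals.
Mir700 hairpin: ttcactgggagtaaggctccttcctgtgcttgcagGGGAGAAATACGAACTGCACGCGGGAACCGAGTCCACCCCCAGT
In the minimum free energy fold of this sequence (-33.2 kcal/mol), 26 base pairs formed, each joining an intronic to an exonic base, and 16 of them joined the 5p to the 3p arm. A spliced Rcan3-201 messenger therefore holds only the 3′ side of the stem. No other gene among the 1058 microRNA genes with RefSeq sequences carried the seed of either arm. The deposited table holds a single value for the hairpin, so the arms were not measured separately.

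**Figure D1:**
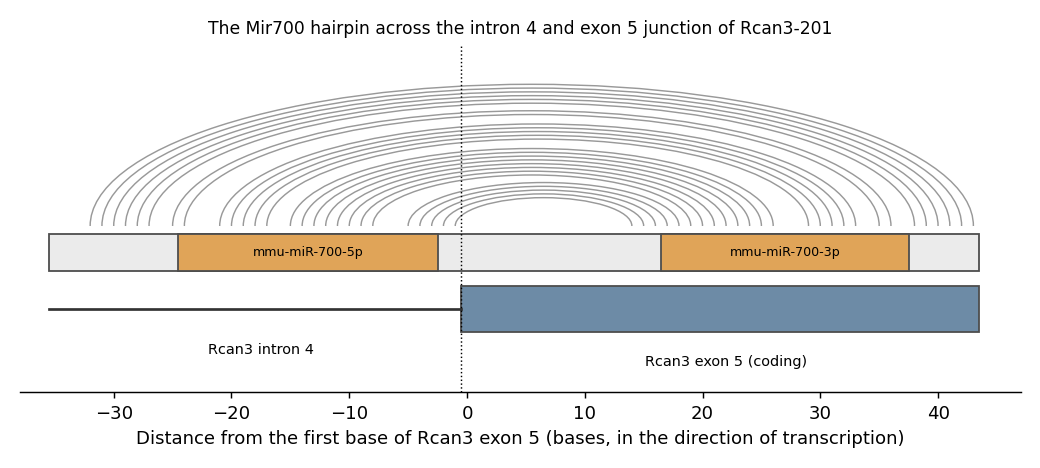
The Mir700 hairpin drawn to scale along the Rcan3-201 junction; the horizontal axis is the distance in bases from the first base of exon 5, negative in intron 4. Orange boxes are the mature arms, grey arcs the 26 predicted base pairs, and the blue box the coding part of exon 5. Every arc crosses the dotted splice site.

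Overlap with an exon of a protein-coding host gene, whether in coding sequence or UTR, was not usual among the microRNA genes of the table. Of 1227 annotated microRNA genes, 116 overlapped an exon of a protein-coding gene on the same strand, and 55 crossed the edge of such an exon as Mir700 does.

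Mir700 was of middling abundance. Its estimated count was a whole number in every library and ran from 40 to 254 (median 95), against library totals from 2117539 to 9099227. Normalised by library total with TMM scaling (CPM), it averaged 28.6, which ranked it at 260 of 470 tested transcripts. Counting error limited single values: the coefficient of variation among the 8 libraries of a group had a median of 12.0% (7.74% to 24.1% over the 21 groups), whereas counting alone gave 10.2% (7.21% to 11.6%). The 2-month groups varied most, with a median coefficient of 18.0%, compared with 11.1% at 6 months and 10.8% at 10 months.

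At 2 months the genotypes overlapped throughout. WT libraries ran from 19.8 to 34.2 CPM (median 26.4), Q20 from 23.4 to 33.0 (median 27.0) and Q175 from 17.5 to 35.4 (median 26.3). Q80 ran from 19.5 to 37.4 (median 26.2), Q92 from 19.6 to 27.8 (median 24.9), Q111 from 19.3 to 35.3 (median 26.4) and Q140 from 18.9 to 30.6 (median 25.6). The Q175 animals included the lowest library of the whole series as well as 2 that exceeded the highest of the 16 controls (Q20 and WT together). Only 3 of 8 Q175 libraries were above the control median. Ordered by mean, the 2-month groups ran WT (27.6 ± 4.98 CPM, SD, n = 8), Q20 (27.1 ± 2.88), Q175 (27.1 ± 6.01), Q80 (27.0 ± 5.52), Q111 (26.4 ± 5.30), Q140 (25.9 ± 3.69) and Q92 (24.4 ± 3.06). No neighbours in this order differed by more than their pooled SD.

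The fitted slope at 2 months was -0.03 log2 per 100 CAG repeats (SE 0.06, 95% interval -0.14 to 0.08), with an adjusted p of 0.988 in the edgeR quasi-likelihood test over 470 transcripts. At this age 1 of the 470 transcripts (0.213%) passed an adjusted p of 0.05 for the slope. The difference of Q175 from the controls was -0.01 log2 (SE 0.10, 95% interval -0.22 to 0.20, adjusted p = 0.997), in a contrast that called none of the 470 transcripts (0.0%). The differences of the other alleles from the controls ranged from -0.15 for Q92 (SE 0.10, adjusted p = 0.993) to -0.04 for Q80 (SE 0.11, adjusted p = 0.944). The control genotypes differed by 0.00 log2, Q20 minus WT (SE 0.12, 95% interval -0.24 to 0.25). Differences between ages were not tested, because every library batch belonged to 1 age, so that age and batch cannot be told apart.

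At 6 months Q175 was the highest group. Its libraries ran from 29.9 to 59.5 CPM (median 37.9), and those of Q140, the next highest, from 27.7 to 40.0 (median 33.0). WT libraries ran from 26.9 to 43.2 (median 31.3) and Q20 libraries from 24.1 to 34.1 (median 27.1). All 8 Q175 libraries were above the median of the 16 controls (28.1) but only 2 exceeded the highest control, a WT female, so the groups overlapped. Against WT alone, the controls that shared the batch of Q175, 7 of the 8 were above the median (31.3). Q80 ran from 26.0 to 32.7 (median 29.4), Q92 from 23.5 to 31.2 (median 26.4) and Q111 from 24.8 to 33.5 (median 28.8). None of the 24 libraries of these alleles passed the highest control, which was in a different batch from them.

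By mean, the order at 6 months was Q175 (39.5 ± 9.51 CPM, SD, n = 8), Q140 (33.0 ± 4.30), WT (32.3 ± 5.44), Q80 (29.1 ± 2.26), Q111 (28.9 ± 3.13), Q20 (27.7 ± 3.07) and Q92 (27.2 ± 2.78). None of the gaps between neighbours was wider than the pooled SD, including the 6.51 CPM between Q175 and Q140. The fitted slope was 0.18 log2 per 100 repeats (SE 0.05) and Q175 stood 0.30 log2 above the controls (SE 0.10), or 1.24-fold. Q140 stood 0.26 above them (SE 0.10), whereas Q80 (0.08), Q111 (0.07) and Q92 (-0.04) each lay within 1 SE of the controls. The WT and Q175 libraries formed a batch of their own. With batch fitted, Q175 was therefore in effect set against WT alone, and the other alleles against Q20 alone. In group means of log2 CPM, Q140 was 0.25 above Q20 but 0.04 above WT. In the same fits 6 of 470 transcripts were called for the slope (1.28%) and 12 for Q175 (2.55%), Mir700 having been chosen from this age.

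The 6-month libraries came in 2 series of library numbers. One, here block A, held the 8 WT and 8 Q175 libraries and no others, and the remaining genotypes made up block B. Mir700 averaged 35.9 CPM in block A and 29.2 in block B, and the median library total was 5162648 in block A and 3635010 in block B. The deposited RPKM of Mir700 matched a recalculation from count, total and the 79-base length to within rounding in all 16 libraries of block A. In the other 152 libraries of the series the deposited value was 0.64 to 0.69 of the recalculated one. The authors' scaling thus differed between the blocks, and RPKM was not compared across them. Within block A, Q175 exceeded WT by 0.27 log2. Within block B, where the lengths ran from Q20 to Q140, the slope was 0.17 per 100 repeats. WT and Q20 differ in block, so their difference at this age (27.7 and 32.3 CPM) cannot be told apart from it, and neither can that between Q175 and Q140.

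One library moved the 6-month difference more than the others. Library F4 of Q175 held 200 Mir700 counts in the smallest total of block A, 58.9 CPM without TMM scaling (95% Clopper-Pearson interval 51.1 to 67.7, counting error only). On the TMM scale F4 was at 59.5 CPM and the next highest Q175 library at 44.3. Without F4 the Q175 difference fell to 0.20 log2 and the slope to 0.14, the lowest values when any 1 library was left out, and without the highest WT library (F2) they rose to 0.37 and 0.21. Its level was not far enough from the rest of its group to meet the criterion used for single outlying libraries.

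At 10 months Q175 was again the highest group. Q175 libraries ran from 27.8 to 37.5 CPM (median 33.8), WT from 19.9 to 29.5 (median 24.7) and Q20 from 25.4 to 31.4 (median 27.4). Of the 8 Q175 libraries 5 exceeded the highest of the 16 controls, and all 8 exceeded the control median of 26.0. Q140 ran from 23.7 to 32.7 (median 28.7), Q111 from 25.2 to 31.7 (median 27.7), Q92 from 24.2 to 32.4 (median 28.3) and Q80 from 22.2 to 31.2 (median 28.7). Of these 32 libraries 4 passed the highest control, and none was below the lowest.

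**Figure D2:**
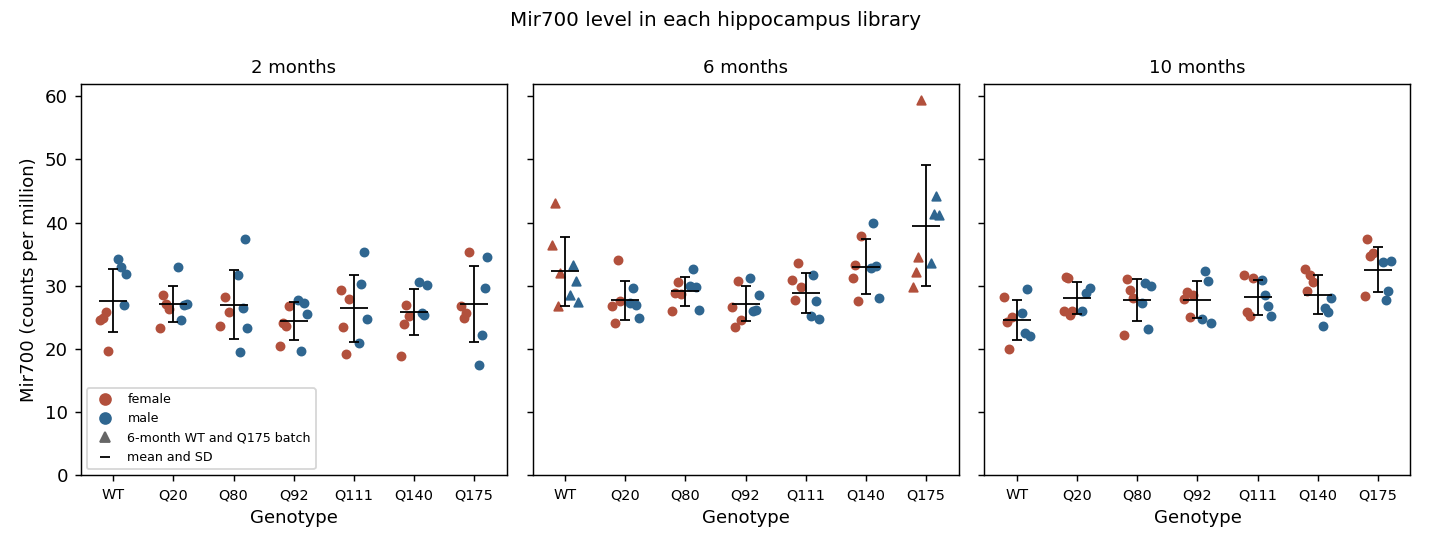
Mir700 in CPM (vertical axis) in each library by genotype, 1 panel per age; red points are females, blue points males, triangles the 6-month block A, and black bars the mean and SD of 8 libraries. At 2 months the groups overlap. At 6 and 10 months all Q175 libraries lie above the control medians of 28.1 and 26.0, with 1 Q175 female at 59.5. The 6-month controls include Q20 libraries outside block A, and 7 of 8 Q175 libraries at that age exceed the WT median of 31.3.

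The 10-month order was Q175 (32.6 ± 3.57 CPM, SD, n = 8), Q140 (28.6 ± 3.09), Q111 (28.2 ± 2.76), Q20 (28.1 ± 2.53), Q92 (27.8 ± 2.97), Q80 (27.7 ± 3.33) and WT (24.6 ± 3.18). It had a flat middle: the 5 groups from Q140 to Q80 spanned less than 1 CPM, although their repeat lengths ran from 20 to 140. The step from Q140 to Q175 (4.01 CPM) was wider than the pooled SD of 3.34, and it was the only such step at any age. The step from WT to Q80 (3.08) was within the pooled SD of 3.26. Q20 was above WT by 0.19 log2, as far as Q175 was above Q140 (0.19), although Q20 and WT served together as the controls.

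The slope at 10 months was 0.18 log2 per 100 repeats (SE 0.04), and Q175 exceeded the controls by 0.32 log2 (SE 0.07), or 1.25-fold. Against WT alone the Q175 difference was 0.38. Q140 (0.16), Q92 (0.14), Q80 (0.13) and Q111 (0.13) were all higher than the controls, each with an SE of 0.07, and did not order by repeat length. At this age 52 of 470 transcripts (11.1%) were called for the slope, 27 of them upwards (5.74%), and 70 were called for Q175 (14.9%), 32 of them upwards (6.81%). Without Q175 the slope was 0.16 at 6 months and 0.15 at 10 months, and without WT it was 0.15 and 0.16. Leaving out either genotype at 6 months leaves a single CAG length in block A. With batch fitted, both 6-month values therefore rest in effect on block B and are not separate checks.

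**Figure D3:**
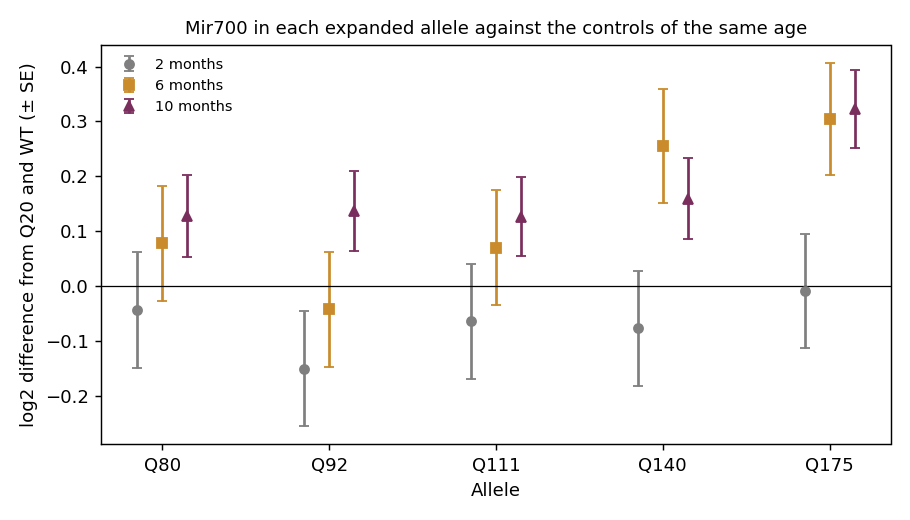
Fitted log2 difference of Mir700 between each expanded allele and the controls (Q20 and WT) of the same age, with bars of ± 1 SE; circles are 2 months, squares 6 months and triangles 10 months. Values at 2 months lie at or below 0, and the highest at 6 and 10 months are those of Q175, 0.30 and 0.32. At 6 months batch leaves Q175 in effect set against WT alone and the other alleles against Q20 alone.

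The 10-month difference was similar in the 3 batches of that age, named by the L codes of the library labels. These libraries were among those from which Mir700 was chosen, so the likeness is a description and not an independent check. The slope was 0.16 in L6 (16 libraries), 0.19 in L7 (30 libraries) and 0.17 in L8 (10 libraries). Q175 exceeded the controls by 0.28 log2 in L6 (3 against 8 libraries), 0.37 in L7 (3 against 6) and 0.32 in L8 (2 against 2). At 2 months the batches disagreed in sign. The slope was -0.10 in L3 (30 libraries), 0.12 in L4 (20 libraries) and -0.31 in L2, which held 6 libraries with 1 control and no Q175 animal.

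**Figure D4:**
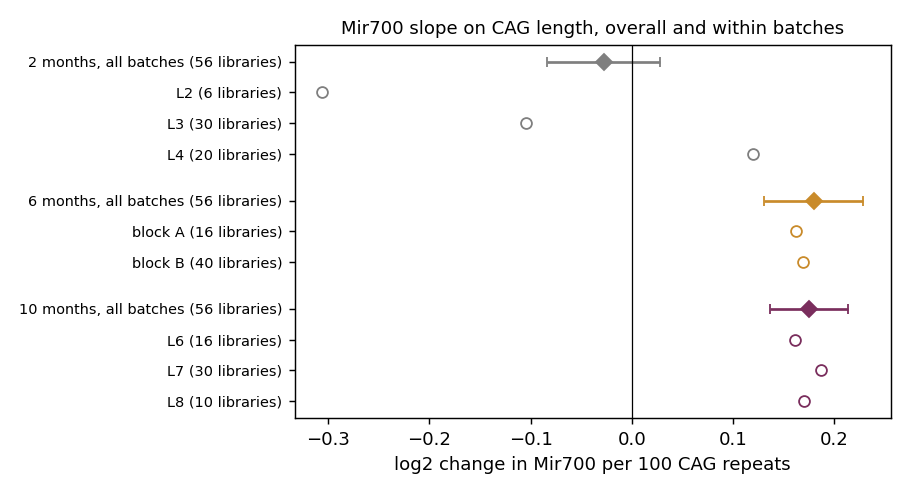
Log2 change of Mir700 per 100 CAG repeats (horizontal axis) at each age over all 56 libraries (diamonds, bars ± 1 SE) and within each batch (open circles, no error shown). At 6 and 10 months each batch gives a slope between 0.16 and 0.19, while the 2-month batches lie on both sides of 0. Mir700 was chosen from the 6- and 10-month libraries, so the likeness of their batches is only a description.

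Hippocampal tissue holds several cell types, and in such samples fewer cells of a type cannot be told apart from less RNA per cell. MicroRNAs typical of neurons (9 rows, among them the Mir124, Mir9 and Mir128 genes) summed to 72668 to 105543 CPM across the libraries, and each other marker list (oligodendrocyte, microglia and leukocyte, vascular, choroid plexus, epithelial, erythroid) was also detected, none of the markers being at 0 in all libraries. At 10 months the summed neuronal markers were 78650 to 83529 CPM in Q175 (median 80781), against 77468 to 91640 in the controls (medians 83901 in WT and 85657 in Q20). At 6 months they were 79296 to 84716 in Q175 and 75562 to 90195 in the controls. The sums do not show changes of single genes. At 10 months Mir124a-1 (CAG slope -0.11, edgeR adjusted p = 0.00964), Mir128-1 (-0.07, adjusted p = 0.0256) and Mir128-2 (-0.07, adjusted p = 0.0273) were called downwards. Mir124a-2 (-0.09, adjusted p = 0.801) and Mir124a-3 (-0.07, adjusted p = 0.682) were not called. Nor were Mir138-1 (-0.05, adjusted p = 0.222) and Mir138-2 (-0.02, adjusted p = 0.563), and slopes of the Mir9 genes are not given here. Among all 470 transcripts 52 (11.1%) were called for the slope at this age, 25 of them downwards. The part of cell composition in the Mir700 differences was not tested.

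Sex did not enter the choice of Mir700. At 2 months females averaged 25.2 ± 3.41 CPM (SD, n = 27) and males 27.7 ± 5.08 (n = 29), and the female mean was the lower in 6 of 7 genotypes, Q175 being the exception. The female minus male difference was -0.13 log2 (SE 0.06, 95% interval -0.26 to 0.00). In edgeR it had an unadjusted p of 0.0457 and an adjusted p of 0.438, so it did not pass, in a comparison that called 2 of 470 transcripts (0.426%). The difference was 0.02 log2 at 6 months (SE 0.06, adjusted p = 0.956) and 0.05 at 10 months (SE 0.04, adjusted p = 0.756), where neither comparison called any transcript (0.0%).

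The sexes did not overlap in 2 of the 21 groups, which are named here after their values were seen. In WT at 2 months the 4 females ran from 19.8 to 25.8 CPM and the 4 males from 26.9 to 34.2, a gap shown by 14 of the 470 transcripts in that group (2.98%). In Q140 at 10 months the order was the opposite, with females at 29.2 to 32.7 and males at 23.7 to 28.1, and 17 of 470 transcripts did not overlap there (3.62%). The CAG slope did not differ detectably between the sexes. The female minus male difference in slope was 0.12 per 100 repeats at 2 months (SE 0.11, 95% interval -0.11 to 0.35, adjusted p = 0.909). It was -0.11 at 6 months (SE 0.10, 95% interval -0.31 to 0.08, adjusted p = 0.999) and 0.09 at 10 months (SE 0.08, 95% interval -0.07 to 0.24, adjusted p = 0.880), and 5 of 470 transcripts were called for this difference at 10 months (1.06%).

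The transcripts most like Mir700 were sought by the correlation of the 21 group means, each age centred on its own mean. The 469 other transcripts gave r from -0.80 to 0.84 (median -0.13), points that share libraries, depth and batch. The highest were Mir298 (0.84) and Mir296 (0.84), which are neighbours on chromosome 2, Mir3072 (0.84) and Mir496a (0.83), both in the imprinted Dlk1-Dio3 region of chromosome 12, and Mir187 (0.82). Each of these 5 was highest in Q175 at 6 months, with WT, the other genotype of block A, next at that age. The group means were not adjusted for batch. The height of Q175 over the genotypes of block B therefore cannot be told apart from block. Only Mir187 was called for the slope, at 0.18 per 100 repeats at 6 months (SE 0.04, edgeR adjusted p = 0.0113) and 0.24 at 10 months (SE 0.06, adjusted p = 0.00381). For Mir298 the slopes were 0.19 at 6 months (adjusted p = 0.203) and 0.10 at 10 months (adjusted p = 0.0788), and for Mir296 0.25 (adjusted p = 0.0620) and 0.05 (adjusted p = 0.723). Mir3072 gave 0.18 (adjusted p = 0.283) and 0.20 (adjusted p = 0.0971), and Mir496a 0.11 (adjusted p = 0.196) and 0.09 (adjusted p = 0.0788). At 2 months none of the 5 was called.

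**Figure D5:**
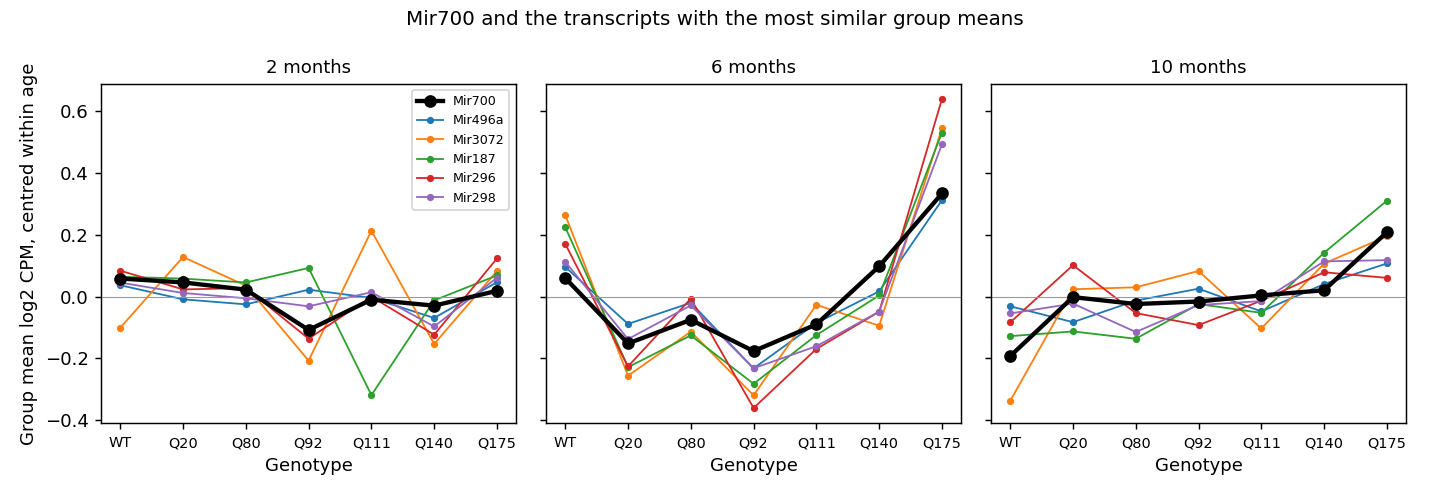
Group means of log2 CPM, centred within each age (vertical axis), by genotype for Mir700 (thick black line) and the 5 transcripts whose 21 group means correlate best with it (r 0.82 to 0.84). All 6 lines peak in Q175 at 6 months, where Mir700 is at 0.33. The means are not adjusted for batch, and at 6 months Q175 and WT form block A.

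MicroRNA genes placed like Mir700 on host exons were also followed. Of the 32 other tested microRNA genes that overlap a same-strand exon of a protein-coding gene, none was called for the slope at 2 months, 1 fell at 6 months and 4 fell at 10 months, and none rose. Over all 470 transcripts 6 (1.28%) were called at 6 months, 3 of them downwards. At 10 months 52 (11.1%) were called, 25 of them downwards and 27 upwards. Counted in either direction, the 4 of 32 were near the share of all transcripts. Their median slope was 0.01, -0.03 and -0.03 at the 3 ages, against 0.00, 0.02 and 0.00 for the 469 other tested transcripts, and their highest slope at 10 months was 0.11. Of these, 13 cross an exon edge as Mir700 does. The only one called was Mir5129, in Zeb2, whose slope at 10 months was -0.19 (SE 0.06, edgeR adjusted p = 0.0484). Mir26a-2, in the phosphatase gene Ctdsp2, and Mir125a, in Spaca6, are far more abundant, and their slopes at 10 months were -0.05 (adjusted p = 0.137) and -0.02 (adjusted p = 0.780).

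MicroRNAs linked to calcineurin and NFAT signalling were taken as the pathway list, and 12 of its 13 named members were tested. None was called at 2 or 6 months, and at 10 months 2 fell and none rose, where 52 of all 470 transcripts (11.1%) were called in either direction. The median slope of the 12 was -0.02, -0.04 and -0.03 per 100 repeats at 2, 6 and 10 months. Both that fell come from the activity-regulated pair on chromosome 11 induced by CREB: Mir212, with a 10-month slope of -0.14 (SE 0.03, edgeR adjusted p = 0.00327), and Mir132, at -0.10 (SE 0.03, adjusted p = 0.0273). Mir184 had the highest 10-month slope of the list, 0.18 (SE 0.08, adjusted p = 0.149). The Mir30 genes on the list, which are abundant in brain, ran from -0.04 to 0.03 at that age without a call. No tested microRNA gene other than Mir700 lay inside the 16 listed genes for calcineurin, calmodulin, NFAT and RCAN proteins, so other hosts of the pathway could not be compared.

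The nearest tested genes on chromosome 4 were distant. Mir30e, 14644 kb towards the chromosome start, had a 10-month slope of 0.00 (SE 0.02, adjusted p = 0.970), and Gm25732, 3922 kb towards the end, 0.07 (SE 0.06, adjusted p = 0.549). The transcripts closest in abundance, Mir20a (29.2 CPM) and Gm25190 (28.0 CPM), had 10-month slopes of 0.11 (SE 0.05, adjusted p = 0.110) and 0.15 (SE 0.08, adjusted p = 0.218). Messenger RNA of Rcan3 was not measured in these libraries.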

How the data were processed

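Libraries were made from short hippocampal RNA. Per the study's methods, strand-specific single-end reads were aligned to mm10 with STAR and counted per gene with HTSeq, and the submitters' processing notes name CASAVA 1.8.2. The authors deposited estimated counts for 1626 transcripts, many of them fractional although HTSeq gives whole numbers; which program made them is unknown from the paper and labels. Since the tests had been planned for whole counts, they were rounded. The authors also deposited RPKM values, which served only as a check.

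Identifiers were matched to GENCODE M21 (1228 of 1626). For each age, 56 libraries were fitted in edgeR 4.0.16 (R 4.3.3) with TMM scaling, filterByExpr (minimum count 10; 470 transcripts kept) and the quasi-likelihood F test, two-sided, with Benjamini-Hochberg adjustment over 470 and a threshold of 0.05. CAG length per 100 repeats (7 for WT), or genotype with Q20 and WT as 1 level, was fitted with sex and batch. CPM values are on the TMM scale, except where stated and in the cell type marker sums, which were scaled by library total alone. Log2 CPM used a prior count of 1. Intervals are 95%. The batch was the L code of the library label or, at 6 months, the series of library numbers. Within-batch values are differences of mean log2 CPM, or linear-regression slopes with sex as covariate. The hairpin was folded with RNAfold (ViennaRNA 2.7.2). Library totals ran from 2117539 to 9099227 with a median of 3374648. Among 588 within-group pairs none was identical. The fits were tested on simulated data.

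The genes named are Mir700, the 5 with the most similar group means and the 5 with the most similar residuals. The neighbours of Mir700 in position and level and the members of the calcineurin and NFAT list are also named. So are examples of microRNAs overlapping exons of protein-coding genes. Mir700 and the lists were chosen with earlier results of these data known. Alternatives were DESeq2 1.42.0, RLE size factors, no filter, no batch term, a replicate block, other control sets, each library left out, and RPKM.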

Additional observations from a re-analysis of the deposited data

How the results depend on the processing

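The Mir700 results were recomputed 820 times (728 leaving out 1 library, 92 under other settings). The tested results (2 months, sex and the slope difference between sexes) did not pass the threshold in the main fit or in any of these. The 6- and 10-month slopes and Q175 differences carry no test, and their ranges only describe the values from which Mir700 was chosen. Leaving out each library in turn gave slopes of -0.06 to 0.00 at 2 months, 0.14 to 0.21 at 6 months and 0.16 to 0.19 at 10 months, and Q175 differences of -0.08 to 0.07, 0.20 to 0.37 and 0.30 to 0.37. Without the batch term the 6-month Q175 difference was 0.42 instead of 0.30. With DESeq2 the slopes were -0.03, 0.17 and 0.18. Replicate numbers in the labels did not pair the samples (median correlation of same-numbered pairs -0.01, 0.01 and 0.00), and with a replicate block the slopes were -0.03, 0.18 and 0.17, and no tested result passed. By RPKM, the log2 ratio of Q175 to WT was 0.31 at 6 months and 0.42 at 10 months, against 0.28 and 0.41 by CPM. Depth limits these values: at the mean Mir700 counts of the groups (74.9 to 192.6), the counting error of 1 library is 7.21% to 11.6%.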

Other observations

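Over all libraries, once group, sex and batch were removed, the transcripts whose residual log2 CPM moved most with that of Mir700 were Mir193b (r = 0.43), Mir382 (0.40), Mir770 (0.35), Mir298 (0.33) and Mir3547 (0.32), from a range of -0.36 to 0.43 over 469 transcripts that share library depth. Mir298 was also among the 5 closest in group means. None of the other 4 was called for CAG length at any age: Mir193b (mean 30.5 CPM) had slopes of 0.17 at 6 months (SE 0.05, edgeR adjusted p = 0.0827) and 0.15 at 10 months (SE 0.05, adjusted p = 0.0703). Mir382 and Mir770, both from the imprinted Dlk1-Dio3 region, had 10-month slopes of -0.02 (adjusted p = 0.682) and 0.06 (adjusted p = 0.350), and Mir3547, inside Baiap3, 0.04 (adjusted p = 0.787).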
